A study of Homo sapiens with 16 samples.

Results

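The regions described here are stretches of the genome at which both anti-MAFG and anti-MITF gave peaks in WM164 melanoma cells that overexpress MAFG. Overlapping peaks of the 6 peak lists of these antibodies in MAFG cells were merged on chromosomes 1 to 22 and X. The regions were chosen by the measured peak calls themselves: a merged region was kept as co-bound when it held a peak in at least 2 of 3 anti-MAFG lists and at least 2 of 3 anti-MITF lists. The rule kept 280 of 6720 merged regions, or 4.17%. "Co-bound" means here only that both antibodies gave a peak over the same region, not that both proteins sat on the same DNA molecule. For comparison, 1312 merged regions had a peak in at least 2 anti-MAFG lists and in no anti-MITF list, and 1520 had the reverse. They are called anti-MAFG only and anti-MITF only regions.

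MITF is a basic helix-loop-helix leucine zipper protein that governs the pigment cell lineage and binds E-boxes, above all the longer M-box form in pigmentation genes. MAFG is a small MAF protein: it has a basic leucine zipper but no activation domain of its own, and it acts in pairs, either with itself or with CNC partners such as NRF2 and the repressor BACH1. These pairs bind MAF recognition elements and the related antioxidant response elements at genes of glutathione, thioredoxin and iron handling.

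The libraries came from CUT&RUN, in which an antibody directs a nuclease to chromatin in permeabilised nuclei and the released fragments are sequenced. WM164 is a human melanoma cell line, and 1 line overexpressed GFP as the control while the other overexpressed MAFG. Each line gave 3 anti-MAFG, 3 anti-MITF and 1 H3K4me3 library, each from about 250000 cells, and the 2 IgG control libraries were not analysed here. Whether a line was a clone or a pool, and which promoter drove the overexpressed protein, is not given in the sources used here. Nothing says that libraries of a group came from separate cultures, so p-values measure the spread between libraries, which may be technical.

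Peak lists held 1836 to 2818 peaks in MAFG cells and 14879 to 26221 in GFP cells. A count of fragments at each summit and the local background used for peak calling were recovered from the authors' fold enrichment and p-value. Median fragments at a summit were 17 to 25.5 in MAFG-cell and 10 to 15 in GFP-cell libraries. The scale per fragment was 0.45 to 0.64 in MAFG cells and 0.969 to 1 in GFP cells, so list length, scaling and cell line cannot be told apart. The third anti-MAFG library of GFP cells, with 14879 peaks, overlapped only 46.0% of the first library's peaks and 48.0% of the second's, whereas the second overlapped 65.5% of the first's. H3K4me3, a mark of active promoters, was found in both lines close to 5 of 6 melanocyte lineage genes (no more than 1000 bp from either end), and close to none of the 3 blood, 3 fibroblast and 2 hepatocyte genes. Of 4 epithelial genes, the neighbours KRT8 and KRT18 had such a peak in both lines. Peak lists hold no expression values, so the overexpressed MAFG itself could not be checked.

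Sequences were at hand for promoters in the RefSeq promoter table of GRCh38, which covers 250 bases before to 50 after a start site and does not cover every gene. Co-bound regions touched 42 different windows. The 7 sequences printed here are the 250 bases before the start, 5′ to 3′ along the gene. They were chosen after their values and motifs were seen: PRICKLE2-AS3 for the best-ranked region whose window holds a motif, and the others from the windows that lie in no listed gene and mostly inside the region. Capitals mark any searched motif.
PRICKLE2-AS3, chr3:64187294-64187543, plus strand: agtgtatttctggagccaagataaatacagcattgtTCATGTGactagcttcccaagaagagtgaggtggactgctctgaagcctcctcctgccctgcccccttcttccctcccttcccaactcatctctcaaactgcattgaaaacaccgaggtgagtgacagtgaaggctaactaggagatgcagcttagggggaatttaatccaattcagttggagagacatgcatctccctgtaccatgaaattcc
ITPR2-AS2, chr12:26318674-26318923, plus strand: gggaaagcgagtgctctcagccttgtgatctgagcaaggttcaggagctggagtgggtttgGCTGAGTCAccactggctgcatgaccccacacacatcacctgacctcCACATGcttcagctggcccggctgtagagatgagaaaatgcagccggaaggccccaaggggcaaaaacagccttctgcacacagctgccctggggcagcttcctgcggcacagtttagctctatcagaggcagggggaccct
NOCT, chr4:139015531-139015780, plus strand: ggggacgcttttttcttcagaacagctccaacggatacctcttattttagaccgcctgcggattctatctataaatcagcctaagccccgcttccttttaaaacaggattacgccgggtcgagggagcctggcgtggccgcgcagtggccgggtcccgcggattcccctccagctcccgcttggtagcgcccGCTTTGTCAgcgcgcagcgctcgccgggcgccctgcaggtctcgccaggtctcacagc
SH3TC2, chr5:149063063-149063312, minus strand: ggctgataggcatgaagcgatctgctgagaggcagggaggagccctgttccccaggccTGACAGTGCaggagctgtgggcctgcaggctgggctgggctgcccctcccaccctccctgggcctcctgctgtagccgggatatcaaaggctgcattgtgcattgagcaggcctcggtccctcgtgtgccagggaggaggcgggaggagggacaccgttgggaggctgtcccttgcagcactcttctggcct
PLA2G6, chr22:38181831-38182080, minus strand: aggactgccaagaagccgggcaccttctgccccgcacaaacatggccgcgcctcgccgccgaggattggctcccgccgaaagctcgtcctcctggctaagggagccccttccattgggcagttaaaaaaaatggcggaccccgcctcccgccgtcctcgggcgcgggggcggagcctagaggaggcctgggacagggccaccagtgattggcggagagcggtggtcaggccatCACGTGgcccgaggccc
SNX13, chr7:17940495-17940744, minus strand: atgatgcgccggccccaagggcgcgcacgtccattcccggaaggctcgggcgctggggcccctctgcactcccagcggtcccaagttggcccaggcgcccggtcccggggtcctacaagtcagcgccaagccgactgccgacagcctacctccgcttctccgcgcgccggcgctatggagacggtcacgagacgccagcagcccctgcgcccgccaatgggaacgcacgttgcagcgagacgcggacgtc
CRYL1, chr13:20525858-20526107, minus strand: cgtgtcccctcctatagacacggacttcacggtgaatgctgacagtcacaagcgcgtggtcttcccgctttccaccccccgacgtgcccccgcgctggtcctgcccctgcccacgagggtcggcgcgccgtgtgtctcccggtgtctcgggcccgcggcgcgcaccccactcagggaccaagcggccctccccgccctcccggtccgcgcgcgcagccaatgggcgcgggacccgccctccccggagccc
All 250 bases lay inside the co-bound region except in NOCT and CRYL1, where 195 and 219 did. PRICKLE2-AS3 is a long non-coding RNA antisense to PRICKLE2, and its window holds the M-box. NOCT encodes nocturnin, a phosphatase that acts on NADP cofactors, and its window holds 1 core antioxidant response element, most of which lies just beyond the end of the co-bound region. The PLA2G6 window, before a phospholipase gene, holds a CACGTG E-box. The windows of SNX13 and CRYL1 hold none of the 6 motifs in the bases shown.

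Motifs were searched on both strands of the whole 300-base windows. The core antioxidant response element TGACNNNGC was in 14 of 42 windows at co-bound regions, or 33.3%, against 13.4% of all 34789 windows and 15% of the 14328 windows at an H3K4me3 peak of either line. It was in 26.9% of 130 windows at anti-MAFG only regions and in 20.9% of 516 windows at anti-MITF only regions. A window can reach past its region: counted only where the element lay wholly inside the region, it was in 11 of the 42 windows (26.2%), 19.2% of the 130 and 14.5% of the 516. Those 11 windows held 11 distinct sites, of which 1 is shared by SH3TC2 and its divergent transcript. This count has no counterpart over all windows, since it searches only the overlap. The CACGTG E-box was in 6 of 42 windows (14.3%), between the 4.62% at anti-MAFG only and the 30.4% at anti-MITF only regions, with 7.24% over all windows. The M-box TCATGTG was in 3 of 42 windows (7.14%), with 2.91% over all windows, and all 3 lacked an H3K4me3 peak. It was in 1.54% of windows at anti-MAFG only and 7.95% at anti-MITF only regions. The CACATG E-box, which overlaps the M-box, was in 8 of 42 (19.0%) against 11.1% of all windows. Its shares at anti-MAFG only and anti-MITF only regions were 6.15% and 16.7%. The AP-1 site TGANTCA was in 5 (11.9%) against 7.69% of all windows, with 18.5% at anti-MAFG only and 6.40% at anti-MITF only regions. The complete palindromic MAF element was in 0 of 34789 windows. A match is a description of letters, and 42 windows are few.

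Support for membership varied. Of the 280 regions, 122 had a peak in all 6 MAFG-cell lists, 85 in 2 anti-MAFG and 3 anti-MITF lists, 45 in 3 and 2, and 28 in 2 of each. Just inside the threshold, with 2 and 2 lists, the best-ranked regions lay in FMNL2 (chr2:152572769-152573356), in REEP1 (chr2:86216600-86217386) and near FSCN1 (chr7:5569394-5570506). Their fold enrichments over the lists that called them were 7.55 to 9.66 at FMNL2, 6.19 to 12.3 at REEP1 and 7.73 to 8.98 at FSCN1. Just outside, with a peak in 1 anti-MAFG and 2 anti-MITF lists, stood regions at LSM10 (chr1:36401238-36401751), PADI2 (chr1:17089149-17089607) and NDUFAF6. Theirs were 8.51 to 11.7, 6.95 to 13.2 and 8.62 to 9.97, so peak strength overlapped across the threshold. There were 172 regions with 2 and 1 lists either way.

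Strength was compared within lists by the percentile of the authors' fold enrichment, where 100 is the strongest peak. Averaged over the 6 MAFG-cell lists, with a missing peak counted as 0, the percentile of the 280 regions had a median of 54.6 and ranged from 3.53 to 98.3. These values come from the lists that chose the regions and are a description. The top region lay inside ABHD12 (chr20:25309437-25311154), the gene of a lysophosphatidylserine lipase. In MAFG cells its fold was 16.2, 17.4 and 14.4 with anti-MAFG and 25.2, 23.4 and 27.5 with anti-MITF. In GFP cells it was 23.8, 14.7 and 15.5 with anti-MAFG and 22.7, 26 and 14.7 with anti-MITF. The region was thus among the strongest peaks of every list.

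The second region lay 35277 bp from CMAS, a sialic acid activating enzyme (chr12:22100945-22102824). Its fold was 14.4, 16.2 and 24.3 with anti-MAFG and 14.7, 14.4 and 11.2 with anti-MITF in MAFG cells. In GFP cells it was 8.68, 9.96 and 6.73 with anti-MAFG and 8.56, 8.51 and 12.9 with anti-MITF. The control behind the authors' fold is not given in the sources used here, so values of different lists are shown side by side and no change is read from them. The third, 43845 bp from the Polycomb subunit gene RYBP (chr3:72490468-72491568), had anti-MAFG folds of 13.9, 10.9 and 17.7 and anti-MITF folds of 11, 13.9 and 10.5 in MAFG cells. In GFP cells these were 16.2, 17.6 and 12.6, and 12.9, 12.2 and 12.

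The next 12 by rank lay in or near NR2F2, SLX4IP, PKD1L1, KLF7, CLDN12, FAM124B, COLGALT2, LRRC8D, PSMC2, PRICKLE2, ARSG and KHDRBS3. NR2F2 and KLF7 encode transcription factors, though the nearest end of NR2F2 was 481715 bp from its region. In all of the top 15 regions both antibodies had a peak in 3 of 3 MAFG-cell lists. The region at SLX4IP (chr20:10511185-10512234) had anti-MAFG folds of 17.6, 17.0 and 29.6 in MAFG cells and of 6.79, 4.53 and 8.14 in GFP cells. Its anti-MITF folds were 9.02, 8.63 and 9.76 in MAFG cells and 11.9, 6.51 and 8.63 in GFP cells. Of these 15, only the region at the start of PSMC2, a proteasome ATPase gene, had an H3K4me3 peak in either line, with folds of 13.7 in MAFG cells and 18 in GFP cells. It was also the only one of the 15 missed by a GFP-cell list, the third anti-MAFG list.

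**Figure D1:**
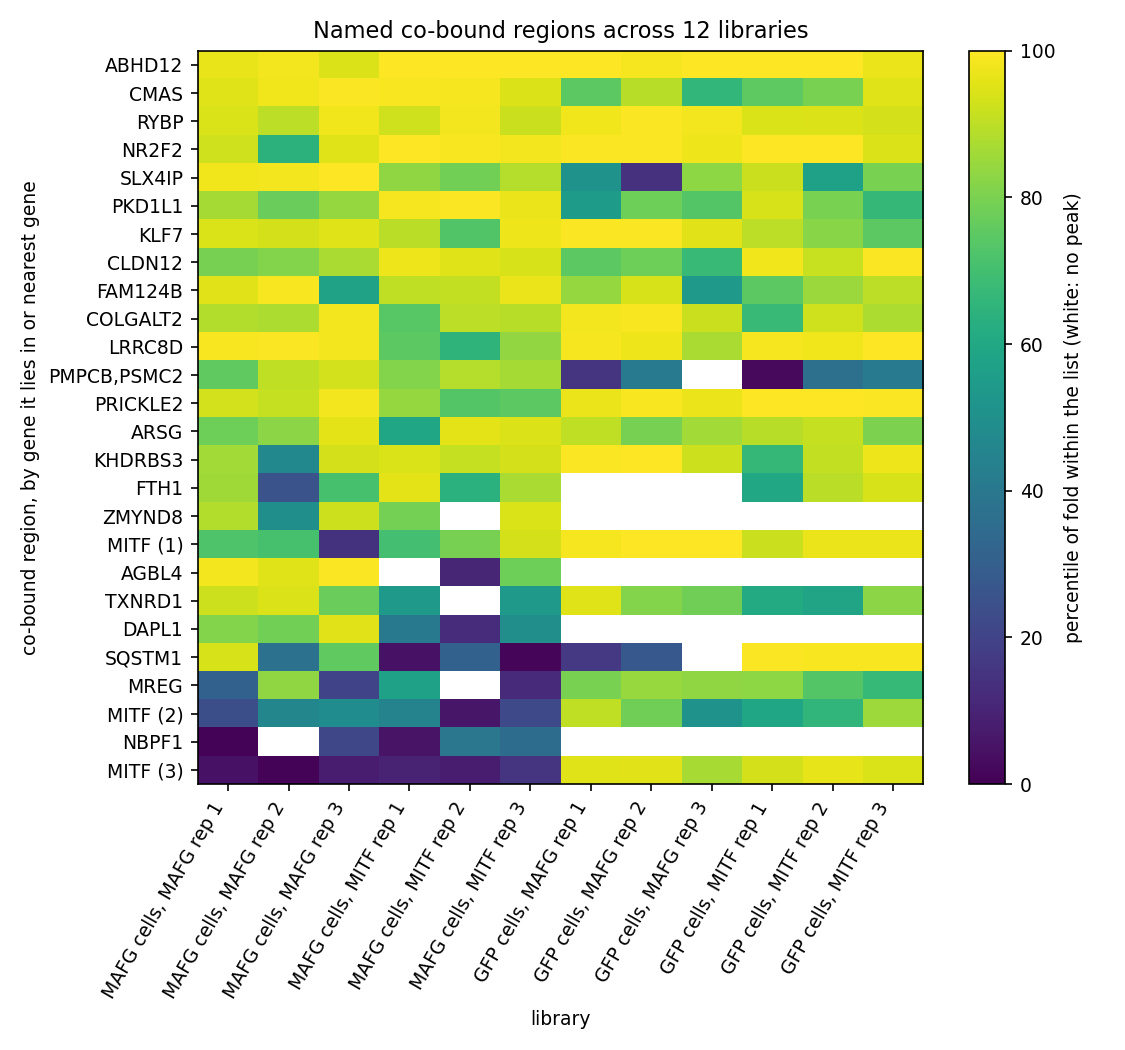
Percentile of the authors' fold within each list (colour) for the 15 best-ranked regions, the 7 regions near genes of the fixed lists and the 4 with no GFP-cell peak (rows, named by gene, best rank on top) in the 12 libraries (columns). MITF regions are numbered by rank, not by position as in the text. White cells have no peak: the rows of ZMYND8, AGBL4, DAPL1 and NBPF1 are white in all 6 GFP-cell libraries, and that of FTH1 in the 3 anti-MAFG libraries of GFP cells.

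Genes of 4 fixed lists were then looked up within 5000 bp. Of 25 MAF and NRF2 target genes, 3 had a co-bound region (12%), against 170 of 19974 protein-coding genes (0.851%). They were FTH1, TXNRD1 and SQSTM1. Anti-MAFG only regions lay near 4 of the 25 (16%, against 3.66% of protein-coding genes) and anti-MITF only regions near 1 (4%, against 6.06%). The lists were chosen with earlier results of these data known, and the shares were not tested.

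FTH1 encodes the heavy chain of ferritin, the iron store. Its region (chr11:61972112-61972733) lay 4478 bp from the gene. In MAFG cells the folds there were 10.9, 5.76 and 8.71 with anti-MAFG and 12.3, 7.5 and 9.49 with anti-MITF. In GFP cells anti-MITF gave 7.15, 10.4 and 12.2, and none of the 3 anti-MAFG lists had a peak. TXNRD1 encodes thioredoxin reductase, and its region lay inside the gene (chr12:104219287-104220161). There anti-MAFG gave 12.9, 13.1 and 9.41 in MAFG cells and 13.4, 8.54 and 7.64 in GFP cells, and anti-MITF gave 6.95 and 6.70 in the first and the third libraries of MAFG cells, no peak in the second, and 7.2, 6.55 and 9 in GFP cells. TXNRD1 was therefore called with both antibodies in both lines.

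SQSTM1 encodes the autophagy receptor p62, and its region (chr5:179818044-179820768) reached the promoter window of the gene. Anti-MAFG folds were 13.9, 6.28 and 9.12 in MAFG cells, and 4.85 and 5.09 in the first and second libraries of GFP cells with no peak in the third. Anti-MITF folds were 4.33, 5.88 and 3.79 in MAFG cells and 21.5, 18.1 and 18.8 in GFP cells. The summits of both antibodies lay 1010 bp apart here in MAFG cells.

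Of 27 MITF target genes, 2 had a co-bound region (7.41%): MREG, which encodes melanoregulin of melanosome transport, and MITF itself. Anti-MITF only regions lay near 7 of the 27 (25.9%, against 6.06% of protein-coding genes) and anti-MAFG only regions near 3 (11.1%, against 3.66%). MREG had 1 region inside the gene, with H3K4me3 in both lines (chr2:216012278-216013532), with anti-MAFG folds of 6.17, 9.72 and 5.61 and anti-MITF folds of 7.08 and 4.90 in the first and the third libraries of MAFG cells. In GFP cells its folds were 9.4, 9.01 and 8.24 with anti-MAFG and 9.54, 7.71 and 7.41 with anti-MITF, so MREG was called in every one of those lists. MITF held 3 regions inside the gene, none with H3K4me3. The first (chr3:69787218-69788041) had anti-MAFG folds of 5.82, 6.61 and 7.06 and anti-MITF folds of 6.52, 4.43 and 5.39 in MAFG cells. The second (chr3:69820432-69821881) had 8.90, 8.19 and 5.32, and 7.95, 8.73 and 10.9. The third (chr3:69838518-69839969) had 4.42, 3.65 and 4.94, and 4.76, 4.58 and 5.04. In GFP cells all 3 were called in all 6 lists, and the folds of the third were 8.55 to 13.5 over those lists. All 3 lie in a stretch of chromosome 3 with a raised local background, described further on.

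No co-bound region lay near any of 19 lysosome and nutrient sensing genes, 9 of which (47.4%) had an anti-MITF only region, against 6.06% of all protein-coding genes. None lay near the 8 melanocyte lineage regulators, 85 cytosolic ribosomal protein genes or 73 replication-dependent histone genes. With 0.851% of all protein-coding genes near a co-bound region, lists of these sizes would hold about 1 such gene or none, so these zeros are near the background. Under the 280 regions lay no tRNA, snRNA, snoRNA or rRNA gene of the table. A protein-coding gene lay under 159 (56.8%, against 55.6% of merged regions) and a lncRNA gene under 56 (20%, against 19.6%). PRICKLE2 held 4 regions, CNIH3, MITF and PDE4B 3 each, and ARSG, GXYLT2, PPFIA1, PTPRJ, SLX4IP and TNS3 2 each.

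GFP-cell libraries were not used to choose the regions, and they ask whether the same places are called without MAFG overexpression. In 2 or 3 of 3 anti-MAFG lists of GFP cells 252 of 280 co-bound regions had a peak (90.0%, exact 95% interval 85.9 to 93.3), against 60.2% of merged regions. With anti-MITF 269 did (96.1%, interval 93.1 to 98.0), against 67.2%. These intervals cover the counting of regions only. The regions share libraries and partly lie close together, so the intervals do not measure the spread between libraries. All 6 GFP-cell lists called 206 (73.6%, against 27.2%), and no list called 4 (1.43%, against 10.2%). Merged regions include 1522 with a peak in 1 anti-MITF list alone and 1560 in 1 anti-MAFG list alone. No GFP-cell list called 0.395% of anti-MITF only and 17.6% of anti-MAFG only regions, and all 6 called 33.3% and 19.1%. The same rule applied to GFP cells gives 10347 co-bound regions, and 249 of these (2.41%) overlapped 88.9% of the 280.

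By library, the 3 anti-MAFG lists of GFP cells called, in order of their number, 93.6%, 88.9% and 81.8% of the 280, against 67.6%, 61.2% and 46.6% of merged regions. Their mean is 88.1% ± 5.94 (SD, n = 3). The anti-MITF lists called 95.7%, 93.6% and 96.1%, against 66.7%, 66.2% and 66.3% of merged regions. Their mean is 95.1% ± 1.35 (SD, n = 3). The mean was 7.02 points higher with anti-MITF, which missed the threshold (two-sided exact permutation test over libraries, p = 0.2, n = 3 per group, where 0.1 is the smallest possible). The first anti-MAFG list equalled the second anti-MITF list, so the groups touched.

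Anti-MAFG only regions were called in 75%, 70.5% and 56.7% by the anti-MAFG lists of GFP cells, so the co-bound regions stood 20.7 ± 3.8 points higher (SD, n = 3), in all 3 libraries. Anti-MITF only regions were called in 96.6%, 96.0% and 97.2% by the anti-MITF lists, and here the co-bound regions stood lower in all 3 libraries, at -1.48 ± 0.822 points (SD, n = 3). Over the 6 libraries the difference was 9.60 ± 12.4 points (SD, two-sided exact sign-flip permutation test, p = 0.25, n = 6), so it did not pass. This mean joins antibodies with opposite signs, so its SD is not spread between libraries alone and the test cannot decide for either antibody. Without the second anti-MITF library of MAFG cells the anti-MITF difference turned to 0.57 points.

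Strength differed between the sets compared. In MAFG cells the median of the mean percentile with anti-MAFG was 56.0 at co-bound and 54.3 at anti-MAFG only regions. With anti-MITF it was 64.7 at co-bound and 52.4 at anti-MITF only regions. Co-bound regions were also wider, with a median of 1196 bp against 842 and 785 bp, and joining peaks of both antibodies widens them. All merged regions had a median of 598 bp, and the part of width in shares set against merged regions was not tested. Counting within 150 bp either side of the summit makes widths equal. The differences from single-antibody regions were then 19.6 ± 1.92 points with anti-MAFG and -1.64 ± 0.747 with anti-MITF (SD, n = 3 each). GFP-cell lists are far longer than MAFG-cell lists. With the best 1836 peaks of each of the 12 lists the rule kept 211 regions, of which GFP-cell anti-MAFG lists called 29.7% ± 2.34 and anti-MITF lists 38.4% ± 3.76 (SD, n = 3 each). Anti-MAFG only and anti-MITF only regions so defined were called in 16.8% ± 0.896 and 41.3% ± 0.666.

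**Figure D2:**
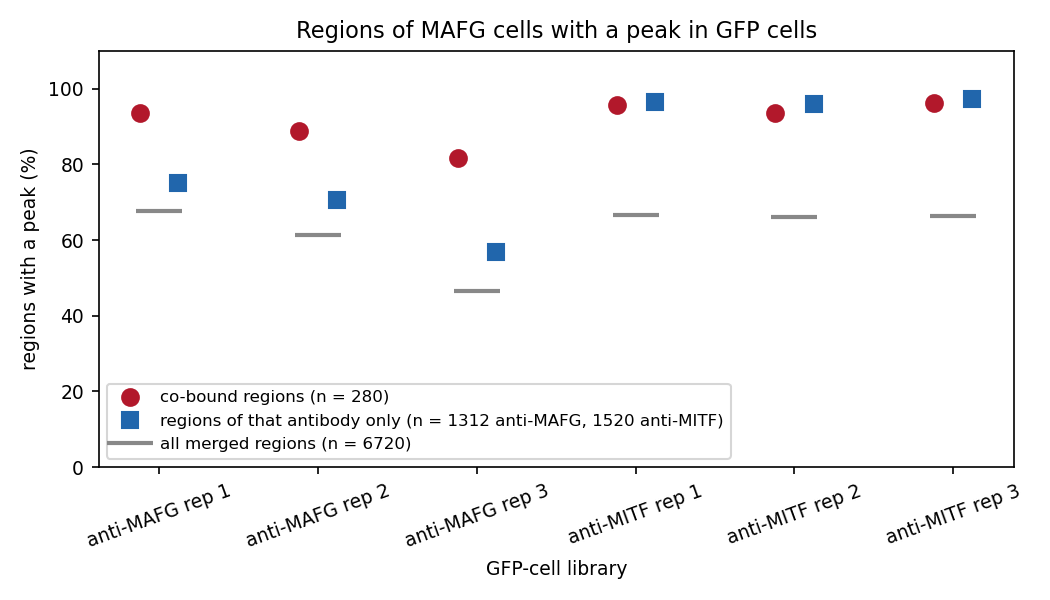
Share of co-bound (circles), single-antibody (squares) and all merged regions (grey lines) of MAFG cells that held a peak in each of the 6 GFP-cell libraries (x axis), in percent. Co-bound regions sit above anti-MAFG only regions in the 3 anti-MAFG libraries (81.8% to 93.6% against 56.7% to 75%) and close below anti-MITF only regions in the 3 anti-MITF libraries.

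GFP-cell peaks over co-bound regions were strong for their lists. Their median percentile was 82.0, 78.9 and 73.6 in the anti-MAFG lists and 84.7, 83.0 and 84.3 in the anti-MITF lists, a mean of 81.1 ± 4.20 (SD, n = 6) against 50 for all peaks. This difference passed the threshold, and all 6 libraries were above 50 (two-sided exact sign-flip permutation test, p = 0.031, the smallest that 6 libraries allow). Merged regions called in GFP cells also ranked above 50, with medians of the mean percentile per region of 58.7 with anti-MAFG and 68.5 with anti-MITF. Co-bound regions had 73.3 and 82.4 by that measure. The test against 50 therefore does not single out co-bound regions. Peaks over single-antibody regions were strong as well, at 70.8 ± 3.16 with anti-MAFG and 87.0 ± 0.137 with anti-MITF (SD, n = 3 each). Co-bound regions differed from them by 7.37 ± 2.21 points with anti-MAFG and by -3.00 ± 0.873 with anti-MITF (SD, n = 3 each). Over the 6 libraries the difference was 2.19 ± 5.88 points (SD, exact sign-flip permutation test, p = 0.41, n = 6). That mean joins antibodies with opposite signs and different comparison regions. Its SD is therefore not spread between libraries alone, and the test cannot decide for either antibody. High rank in GFP cells was thus not shown to be particular to co-bound regions.

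The 4 regions with no GFP-cell peak lay in ZMYND8 and AGBL4 and near DAPL1 and NBPF1. ZMYND8 encodes a chromatin reader, and its region (chr20:47233277-47234065) had anti-MAFG folds of 11.6, 6.83 and 12.9 and anti-MITF folds of 8.58 and 11.1 in the first and the third libraries. AGBL4 encodes a carboxypeptidase that trims glutamate from tubulin (chr1:48546934-48548359). There anti-MAFG gave 18.3, 13.5 and 24.5, while anti-MITF gave no peak, 4.79 and 8.4. The region near DAPL1 (chr2:158781060-158782252) had 10.1, 8.88 and 14.7 with anti-MAFG and 6.19, 4.91 and 6.51 with anti-MITF. The region near NBPF1 (chr1:16620622-16621563), a member of a family of near-identical copies where placement of reads is uncertain, had folds of 3.68 and 5.66 in the first and the third anti-MAFG libraries and 4.38, 6.26 and 5.86 with anti-MITF. None of the 4 had an H3K4me3 peak.

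In 8 further regions at least 2 anti-MITF lists of GFP cells, and here all 3, had a peak while no anti-MAFG list did (2.86%, against 13.1% of merged regions). Among them were regions at FTH1, LHFPL2, PPCDC, BAIAP2, TMCC2, ACAP3 and XYLT1, named here after their calls were seen. Among anti-MITF only regions, whose rule asks for no anti-MAFG peak in MAFG cells, 391 (25.7%) had a peak in at least 2 anti-MITF lists and no anti-MAFG list of GFP cells. Among the 280, 1 region was called in 2 anti-MAFG lists and no anti-MITF list of GFP cells. The share of merged regions with such calls was not counted, so no imbalance between the antibodies is read from this.

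The balance between the antibodies varied among the 280. In MAFG cells the mean anti-MAFG percentile exceeded the anti-MITF percentile by 25 points or more in 54 regions, and the reverse held in 77. The other 149 lay within 25 points, and in 27 both antibodies were at or above the 75th percentile. The 2 examples that follow were chosen for their imbalance. At TNFRSF1A, the gene of a TNF receptor (chr12:6335235-6337046), anti-MAFG folds were 18.6, 14.4 and 28.4 and anti-MITF folds 5.11, 4.20 and no peak. At the region 75185 bp from GRB10, the gene of a growth factor receptor adaptor (chr7:50868638-50870061), anti-MITF gave 18, 16.7 and 14.3 and anti-MAFG no peak, 6.33 and 6.85.

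The balance was partly shared with GFP cells. Of the 77 regions led by anti-MITF, 72 had percentiles for both antibodies in GFP cells and 60 of these had the higher one with anti-MITF. Of the 54 led by anti-MAFG, 50 had both and 30 had the higher one with anti-MAFG. Over all 266 regions with both, anti-MITF was ahead in 157 and anti-MAFG in 109. Across the 266 regions the lead in MAFG cells and the lead in GFP cells had a Pearson r of 0.33 and a Spearman rho of 0.41. This correlation is across regions, which share libraries and are not replicates. Summits of the antibodies lay a median of 124 bp apart in MAFG cells and within 300 bp in 196 of 280 regions (70.0%). Of all 806 merged regions with a peak of both antibodies, 594 had summits that close (73.7%), so this was not particular to co-bound regions. The rule did not set this distance but did require overlap. Within an antibody, the median spread of summits was 144 bp over anti-MAFG and 124 bp over anti-MITF libraries of MAFG cells. This spread runs between the outermost summits, whereas the distance between antibodies was taken between the median summit of each. The measures are unlike, so whether antibodies differed more than libraries of the same antibody was not tested.

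**Figure D3:**
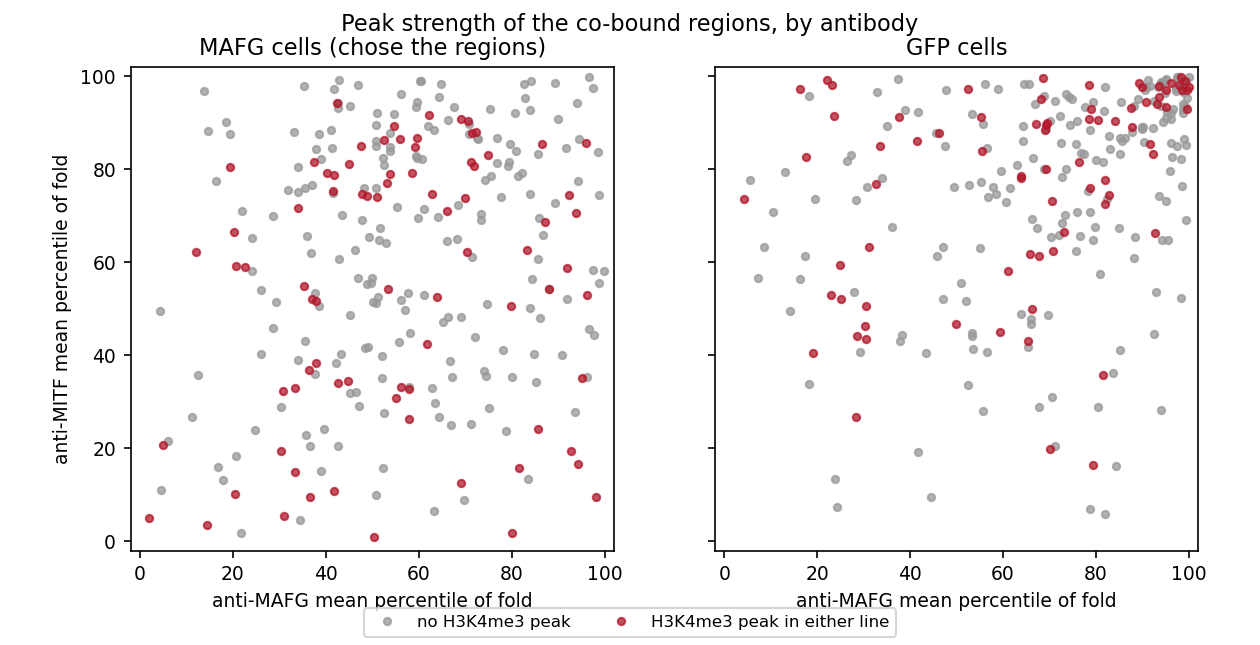
Mean percentile of the authors' fold with anti-MAFG (x axis) and anti-MITF (y axis) for each co-bound region in MAFG cells (left, 280 regions) and GFP cells (right, 266 regions with both), with regions at an H3K4me3 peak in red. In GFP cells the points gather at the upper right, where both percentiles are high, and red points lie across the whole range in both panels.

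H3K4me3 peaks overlapped 51 co-bound regions in MAFG cells (18.2%, exact 95% interval 13.9 to 23.2), against 24.1% of merged regions. In GFP cells they overlapped 74 (26.4%, interval 21.4 to 32.0), against 28.7%. Each line had 1 H3K4me3 library, so there is no test, and the intervals cover counting only. The share lay between those of anti-MAFG only regions (11.3% in MAFG and 14.2% in GFP cells) and of anti-MITF only regions (39.1% and 45.4%). Neither line had the mark at 200 co-bound regions (71.4%, against 70.7%). Both lines had it at 45 (16.1%, against 23.6% of merged regions). GFP cells alone had it at 29 (10.4%, against 5.18%) and MAFG cells alone at 6 (2.14%, against 0.536%). The H3K4me3 list was longer in GFP cells, with 13579 against 11580 peaks.

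An end of a protein-coding gene was no more than 1000 bp away at 21 of the 45 regions marked in both lines, and at 1 of the 200 unmarked regions. Among merged regions this held for 1085 of the 1583 marked in both lines and 108 of the 4753 unmarked. The contrast was thus not particular to co-bound regions. In all, 27 co-bound regions lay that close to a gene end (9.64%, against 18.8% of merged regions), and 112 lay over 50000 bp from one (40.0%, against 35.5%). The share that close was 30.3% of anti-MITF only and 8.69% of anti-MAFG only regions, so by position the co-bound regions were closer to the latter. Leaving out chromosome 8, 36 of 271 co-bound regions overlapped a RefSeq promoter window (13.3%), against 14.5% of merged regions. Marked regions included those at the promoters of NOCT and SNX13, which encodes a sorting nexin, named because their sequences are printed. At NOCT (chr4:139014229-139015725) H3K4me3 fold was 16.3 in MAFG cells and 63.7 in GFP cells, and at SNX13 (chr7:17939504-17941158) 29.6 and 55.6. Of regions led by anti-MAFG 13 of 54 had the mark in MAFG cells (24.1%), and of those led by anti-MITF 13 of 77 (16.9%). This difference was not tested.

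The regions were spread over 21 of the 23 chromosomes, with none on 9 or X. Chromosome 3 held 39 (13.9%), chromosome 2 held 34 and chromosome 1 held 32. Anti-MAFG only and anti-MITF only regions had 8.61% and 7.63% on chromosome 3, and all merged regions 7.95%. Chromosome 9 held 160 merged regions (2.38%) of which none was co-bound. Chromosome 20 held 17 co-bound regions (6.07%, against 3.57% of merged regions) and chromosome 22 held 11 (3.93%, against 2.23%).

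**Figure D4:**
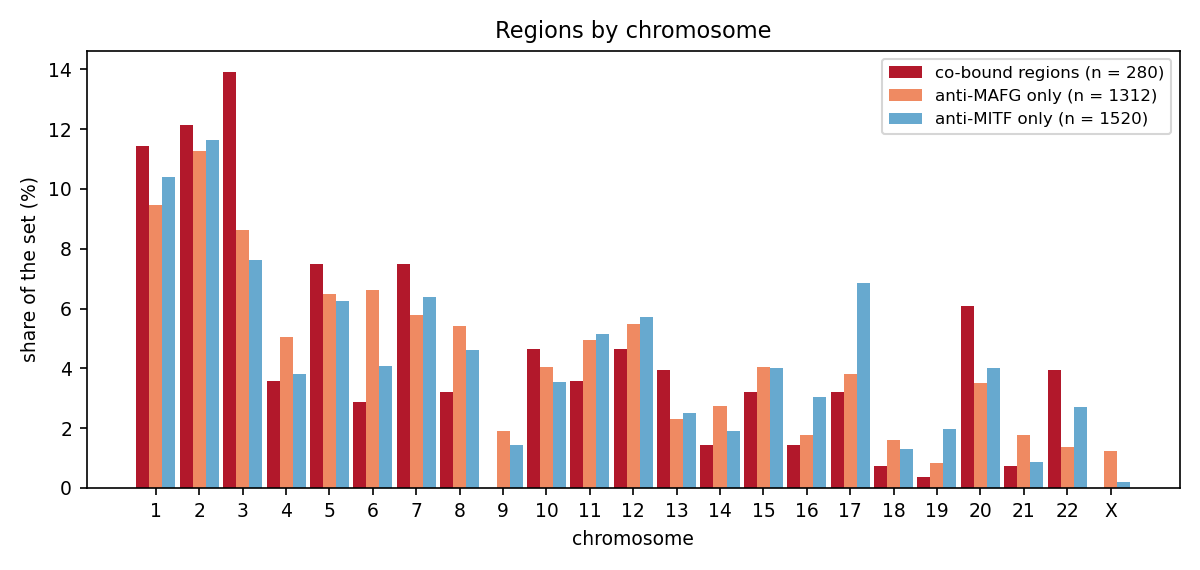
Share of the co-bound, anti-MAFG only and anti-MITF only regions (bars, percent of each set) on each chromosome (x axis). Co-bound regions have their highest share on chromosome 3, 13.9% against 8.61% and 7.63%, and none on chromosomes 9 and X.

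Most of the excess on chromosome 3 fell in 1 stretch. In bins of 10 Mb the leading bins were 60 to 70 Mb of chromosome 3 with 17 regions and 70 to 80 Mb with 12. Together they held 29 of 280 (10.4%), against 3.28% of anti-MAFG only, 2.70% of anti-MITF only and 2.54% of merged regions. There 17.0% of 171 merged regions were co-bound, against 2.75% of 363 on the rest of chromosome 3. The stretch was picked because it held the most members, so this contrast is a description. Besides MITF, its regions lay in or near FHIT, PTPRG, CADPS, PRICKLE2, MAGI1, FOXP1, RYBP, SHQ1, GXYLT2, PDZRN3 and ROBO1. FHIT is a fragile-site gene, FOXP1 a forkhead transcription factor and PRICKLE2 a planar cell polarity gene.

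The longest chain of regions under 100 kb apart had 6 members, in and beside PRICKLE2. From the first (chr3:64186388-64189740) to the last (chr3:64351291-64352747) anti-MAFG folds in MAFG cells were highest in the first, at 13.2, 11.5 and 18.2. Its anti-MITF folds were 9.19, 8.04 and 8.07 in MAFG cells and 24, 20.8 and 20.6 in GFP cells. The next but one in the chain (chr3:64223612-64225923) covers the PRICKLE2 promoter window, with H3K4me3 in both lines. It had anti-MAFG folds of 7.17, 6.57 and 7.32 and anti-MITF folds of 3.33 and 3.63 in the second and the third libraries of MAFG cells, and folds of 11.1 to 21.2 over the 6 GFP-cell lists. All 6 members were called in all 6 GFP-cell lists.

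In all, 53 of the 280 stood in chains under 100 kb (18.9%), compared with 23.2% of anti-MAFG only and 31.4% of anti-MITF only regions, which are more numerous. The median gap between neighbours was 4.01 Mb. Without the stretch 34 regions stood in chains.

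The stretch differed in signal as well as in number. Recovered local background was expressed as a multiple of the library's genome-wide background. Over all peaks in the stretch its median was 7.67 to 12.8 in MAFG-cell and 4.67 to 5.23 in GFP-cell libraries. Elsewhere it was 1.54 to 2.56 and 1.36 to 1.69. Median summit fragments were 34 to 47 in the stretch against 17 to 25 elsewhere in MAFG cells, and 18 to 28 against 10 to 15 in GFP cells. Both background and fragments were thus higher in the stretch in all 12 libraries, with both antibodies and in both lines. Median fold in MAFG cells was lower there, at 5.33 to 6.57 against 6.60 to 7.21. The part of the raised signal in the number of co-bound regions was not tested.

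**Figure D5:**
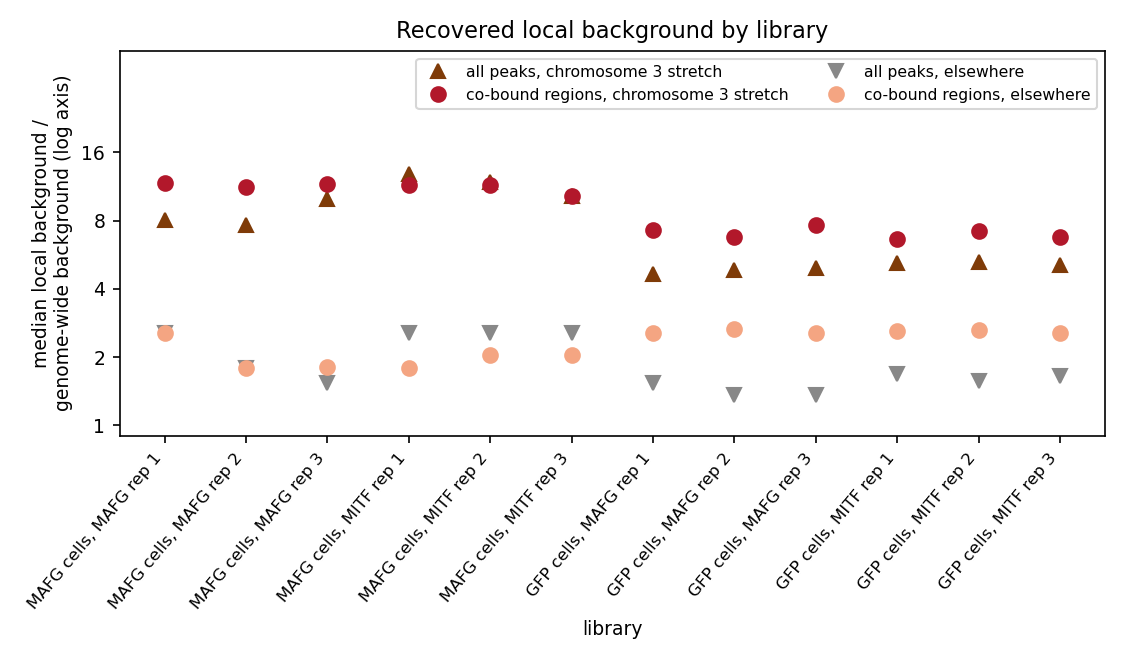
Median local background as a multiple of the genome-wide background (log axis) in each of the 12 libraries (x axis), for co-bound regions and all peaks, in the chromosome 3 stretch and elsewhere. Values in the stretch, 4.67 or more, sit above those elsewhere in every library, and co-bound regions elsewhere lie at 1.79 to 2.67.

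Outside the stretch, 251 regions remained. Their median local background was 1.79 to 2.56 over MAFG-cell libraries and 2.55 to 2.67 over GFP-cell libraries. In GFP cells anti-MAFG only regions there had 1.69 to 2.11 and anti-MITF only regions 1.95 to 2.54, below the co-bound values. In MAFG cells they had 2.25 to 2.56 in the anti-MAFG libraries and 2.56 to 3.46 in the anti-MITF libraries. Co-bound regions had 1.79 to 2.56 and 1.79 to 2.05 in those libraries, so the order was not the same in both lines. A local background of at least 4 times the genome-wide level was found at 63 of 251 co-bound regions in MAFG cells (25.1%), against 32.7% of anti-MAFG only, 30.3% of anti-MITF only and 27.1% of merged regions. In GFP cells the shares were 15.4%, 12.8%, 15.2% and 13.4%, of the 247, 1043, 1473 and 5874 regions with a value there. Over the whole genome, stretch included, 32.1% of the 280 reached that level in MAFG cells (28.7% of merged regions). In GFP cells 23.6% of the 276 with a value did (15.1% of 6035 merged regions). Outside the stretch the co-bound share was thus the lowest of the 4 in MAFG cells. In GFP cells it was the highest, though close to that of anti-MITF only regions. The sets differ in how many regions have a GFP-cell value, and the differences were not tested.

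The highest multiples in MAFG cells were 35.5 near CADPS (chr3:62922116-62925168), 31.9 near SLC39A11 (chr17:72631854-72633279), 31.1 in PRICKLE2, 30.4 at the third MITF region and 28.9 near SHQ1 (chr3:72662808-72664968). Of these 5, the region near SLC39A11 is outside the stretch. It had anti-MAFG folds of 4.49, 3.16 and 3.90 and anti-MITF folds of 4.90, 2.91 and 3.97 in MAFG cells, the lowest rank of the 280. In GFP cells the same region had 21.2, 12.5 and 12.7 with anti-MAFG and 23.9, 22.2 and 23.5 with anti-MITF, and its local background was 2.56 times the genome-wide level. The part of local background in these folds was not tested.

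Regions also differed in how many lists called them. All 12 anti-MAFG and anti-MITF lists called 36.1% of the regions, against 1.5% of merged regions, a contrast the rule makes. With the H3K4me3 lists added, 13 regions were called in all 14 lists (4.64%, against 0.193% of merged regions), among them those at NOCT, SNX13 and MATR3. The rule makes this contrast too, since a region called in all lists passes it. The other 267 were missed by at least 1 list. An IgG list was not used here, so calls with no specific antibody could not be counted.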

How the data were processed

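Peaks were deposited by the authors as 1 narrowPeak list per library. Per the submitters' processing notes, cutadapt 1.8.1, Bowtie2 2.4.1, MACS2 2.1.1.20160309 and ChIPseeker 1.32.1 were used, on GRCh38/hg38, with no settings given. Per the deposited lists, each peak has a fold enrichment (a ratio) and the −log10 of its p- and q-value, with −log10 q of at least 2. The deposited score column was not used. The fold was ranked only within lists, and folds of different lists are set side by side without a test. Total reads are not in the lists. Fragments and local background were solved from fold and p-value, assuming fold = (pileup + 1) / (background + 1) and a Poisson tail, and every peak in the 12 lists of both antibodies had a solution. This and the region count were tested on simulated data. Overlap means at least 1 bp. Genes came from RefSeq (GRCh38.p14), which gave no strand, so gene ends were used. Python 3.11.15, pandas 2.3.3 and scipy 1.17.1 were used.

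Members and gene lists were chosen with earlier results of these data known. Regions named are the 15 best by mean percentile, those within 5000 bp of a listed gene, those without GFP-cell peaks, the 5 of highest local background, the longest chain, and 3 on each side of the threshold. Others, such as TNFRSF1A, GRB10, NOCT and SNX13, were named after their values were seen. Sequences were planned for the best-ranked regions, but promoter windows alone were at hand. Peaks outside chromosomes 1 to 22 and X were left out.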

Additional observations from a re-analysis of the deposited data

Results flagged for a closer look

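The difference between co-bound and single-antibody regions in the share called in GFP cells had opposite signs for the 2 antibodies. It was above 0 in all 3 anti-MAFG libraries and below 0 in all 3 anti-MITF libraries, so that the anti-MITF difference minus the anti-MAFG difference was -22.2 points (exact permutation over libraries, both sides, p = 0.1, the smallest that 3 against 3 allows). Single-antibody regions were called in 67.4% ± 9.53 by the anti-MAFG and in 96.6% ± 0.625 by the anti-MITF libraries of GFP cells (SD, n = 3 each), which bounds how far a difference above 0 can reach in the latter. The part of this bound was not tested. Without the second anti-MITF library of MAFG cells the anti-MITF difference was 0.57 points, and the signs were no longer opposite.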

How the results depend on the processing

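The number of co-bound regions was 156 with −log10 q of at least 5 and 122 with 3 of 3 lists for both antibodies, and 195 to 234 without 1 of the 6 MAFG-cell libraries. Without such a library the rule asks for both remaining lists of that antibody. It is then stricter, here and wherever a MAFG-cell library is left out below. It was 277, 249 and 211 with intersected consensus regions, summits within 300 bp and equal peak numbers. Regions in chains numbered 21, 24 and 21 with the stricter q, 3 of 3 lists and equal peak numbers, 34 without the chromosome 3 stretch, 33 to 42 without 1 library, and 16 and 109 with chains of 10 kb and 1 Mb. The anti-MITF minus anti-MAFG difference in shares called was 3.87 to 9.76 points without 1 library, and 7.02 points (exact p = 0.25, the smallest for 3 pairs) with the replicate numbers as a block. Deviations of same-numbered libraries correlated by 0.0071 to 0.020 over merged regions, so the numbers were not taken to pair libraries. The difference from single-antibody regions was 6.51 to 12 points without 1 library. In anti-MAFG libraries it was 12.9 points with equal peak numbers and 18.5 to 21.8 without 1 library. In anti-MITF libraries it was -0.11 with 3 of 3 lists, -2.95 with equal peak numbers, and -1.79 to 0.57 without 1 library, where 0.57 is without the second anti-MITF library of MAFG cells. The median percentile in GFP cells was 80.3 to 82.6 without 1 library, and without a GFP-cell library p = 0.062 (exact), the smallest for 5 libraries, so that loss is set by the number. It was 65.4 with equal peak numbers. The H3K4me3 share was 20.5% in GFP cells with the stricter q, 16.4% with peaks called in both lines, and 19.3% where the mark had to cover 0.5 or more of the region, and 25.5% to 28.2% in GFP and 15.8% to 19.5% in MAFG cells without 1 library. Leaving out the stretch and counting near summits were chosen after seeing the data. Fragment counts are not known beyond summits, so depth limits small differences.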
